A study of Mus musculus with 6 samples.

Results

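Pigment cells of the skin were followed through 10 genes, 7 that encode components of the melanosome (Pmel, Dct, Tyrp1, Slc45a2, Mlana, Oca2 and Gpr143) and 3 that act on the melanocyte lineage (Mitf, Kit and Sox10). Members were found by the accession that the scanner files give for each probe, looked up in a RefSeq gene table. Of the 10 genes, 8 had a probe, 10 probes in all among the 41174 on the array, while Mlana and Sox10 were not matched to a probe and are not analysed here. All 8 passed the filter on dim probes, Gpr143 through cyclosporin A samples alone and Oca2 through those of day 7 alone, and were tested together with the other genes, 22751 in total. The lists of products and regulators therefore hold 6 and 2 tested genes.

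The study asked what cyclosporin A, an immunosuppressant that inhibits calcineurin and is known to promote hair growth, does to gene expression in mouse back skin. Cyclosporin A samples were back skin of C57/BL mice 2, 4 or 7 days after application, and ethanol samples were back skin of the same strain at the same times after the vehicle alone. Total RNA of each cyclosporin A sample, labelled with Cy5, was hybridised with that of 1 ethanol sample, labelled with Cy3, on a dual-colour Agilent array, with 2 arrays per day and 6 in all. The labels state neither age nor sex, the dyes were never exchanged, and nothing in them ties the samples to separate animals, so the spread that the p-values measure may be technical.

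Melanocytes make pigment in melanosomes, organelles built on amyloid-like fibrils of the protein PMEL, in which tyrosinase (Tyr) and its relatives TYRP1 and DCT turn tyrosine into melanin while transporters such as OCA2 and SLC45A2 set the luminal pH. The transcription factor MITF drives many of these genes, and the receptor tyrosine kinase KIT is needed for melanocyte migration and survival. In mouse trunk skin pigment cells sit mainly in hair follicles, and melanin is made while the follicle grows. Fewer pigment cells and less of a transcript per pigment cell cannot be told apart in RNA of whole skin.

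MITF binds the E box CATGTG in promoters of pigment genes, often within the longer M box, so the stretch upstream of the transcription start is shown for the 2 enzymes among the members and for Tyr. The RefSeq promoter table (mouse build GRCm38.p6) held windows for Dct, Tyrp1, Oca2, Kit and Mitf, and for the pathway genes Tyr, Mc1r and Slc24a5. Pmel, Slc45a2, Gpr143, Mlana and Sox10 were not matched. Each line gives the 160 bases before the start, 5′ to 3′ on the strand of the gene, with TCATGTGCT in capitals, a string that contains the E box and was chosen after the sequences had been seen. The stretches lie at chr14:118052247-118052406 (minus strand) for Dct, chr4:80834053-80834212 (plus strand) for Tyrp1 and chr7:87493513-87493672 (minus strand) for Tyr.
Dct: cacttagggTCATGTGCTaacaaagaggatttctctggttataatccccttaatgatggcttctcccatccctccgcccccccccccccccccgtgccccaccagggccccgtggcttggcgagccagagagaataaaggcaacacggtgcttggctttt
Tyrp1: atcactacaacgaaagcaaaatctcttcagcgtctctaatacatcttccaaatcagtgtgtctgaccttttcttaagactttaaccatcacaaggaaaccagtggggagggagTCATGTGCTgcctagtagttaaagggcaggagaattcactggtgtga
Tyr: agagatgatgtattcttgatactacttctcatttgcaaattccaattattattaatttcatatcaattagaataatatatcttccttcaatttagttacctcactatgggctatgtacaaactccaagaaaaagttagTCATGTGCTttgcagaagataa

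The string TCATGTGCT began at position -151 in Dct, -47 in Tyrp1 and -22 in Tyr, counted from the base before the RefSeq start as -1. It occurred, on either strand, in 0.408% of 32851 windows of 300 bases. The shorter CATGTG, found on either strand in 14.2% of the windows, was also present in the windows of Oca2 at -186 and Slc24a5 at -13, and at 2 places in that of Mc1r. Neither CATGTG nor CACGTG, which 7.15% of windows held, was in the windows of Kit or Mitf. These matches are strings of letters in a window, and binding was not measured.

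Pmel rose after cyclosporin A, and its ratio over ethanol was above 0 on 6 of 6 arrays. Its product makes up the fibrils that melanin settles on. Its normalized intensity was 1048 and 528 in the cyclosporin A samples of day 2, 1578 and 1290 at day 4, and 2587 and 3643 at day 7, against 283 and 283, 369 and 288, and 467 and 455 in the ethanol samples of the same days. Every one of the 6 cyclosporin A samples was above every ethanol sample, with the lowest cyclosporin A sample on day 2. On the log2 scale the ratio was 1.39 at day 2 (1.89 and 0.90 on the 2 arrays), 2.13 at day 4 (2.09 and 2.16) and 2.74 at day 7 (2.47 and 3.0). The change passed at day 7 (6.66-fold, SE 0.24 log2, adjusted p = 0.00401), where adjusted p is limma's, corrected over all genes tested by the Benjamini-Hochberg method, and a gene was called under 0.05. At days 2 and 4 the adjusted p was 0.471 and 0.179.

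Dct, dopachrome tautomerase, carries out the middle step of black melanin synthesis. Intensities were 13344 and 7545 in cyclosporin A samples at day 2, 17576 and 16644 at day 4, and 27572 and 30295 at day 7, against 4023 and 5422, 5817 and 5813, and 6386 and 4916 in ethanol samples. The groups did not overlap here either, and the 2 arrays of day 2 differed most (log2 ratio 1.73 and 0.48). The mean log2 ratio was 1.10, 1.56 and 2.37 at days 2, 4 and 7, and Dct rose 5.16-fold at day 7 (SE 0.28, adjusted p = 0.0145). A second, dimmer probe for Dct gave 1.04, 1.37 and 2.31 on the same days (adjusted p = 0.0299 at day 7).

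Tyrp1, which stabilises tyrosinase and oxidises a later intermediate, followed the same course. Cyclosporin A samples had 326 and 224 at day 2, 406 and 319 at day 4, and 528 and 872 at day 7, and ethanol samples 168 and 155, 155 and 153, and 168 and 168. The ethanol signal was not well above background on either array of day 2 and on 1 of 2 arrays of day 7, so its level there is only bounded. No cyclosporin A sample reached down to the ethanol samples. Tyrp1 rose 4.03-fold at day 7 (log2 ratio 2.01, SE 0.20, adjusted p = 0.00776), and its ratio was 0.74 at day 2 and 1.22 at day 4. Pmel, Dct and Tyrp1 were the only members whose 6 cyclosporin A samples all exceeded all 6 ethanol samples, which 3.29% of all genes did.

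**Figure D1:**
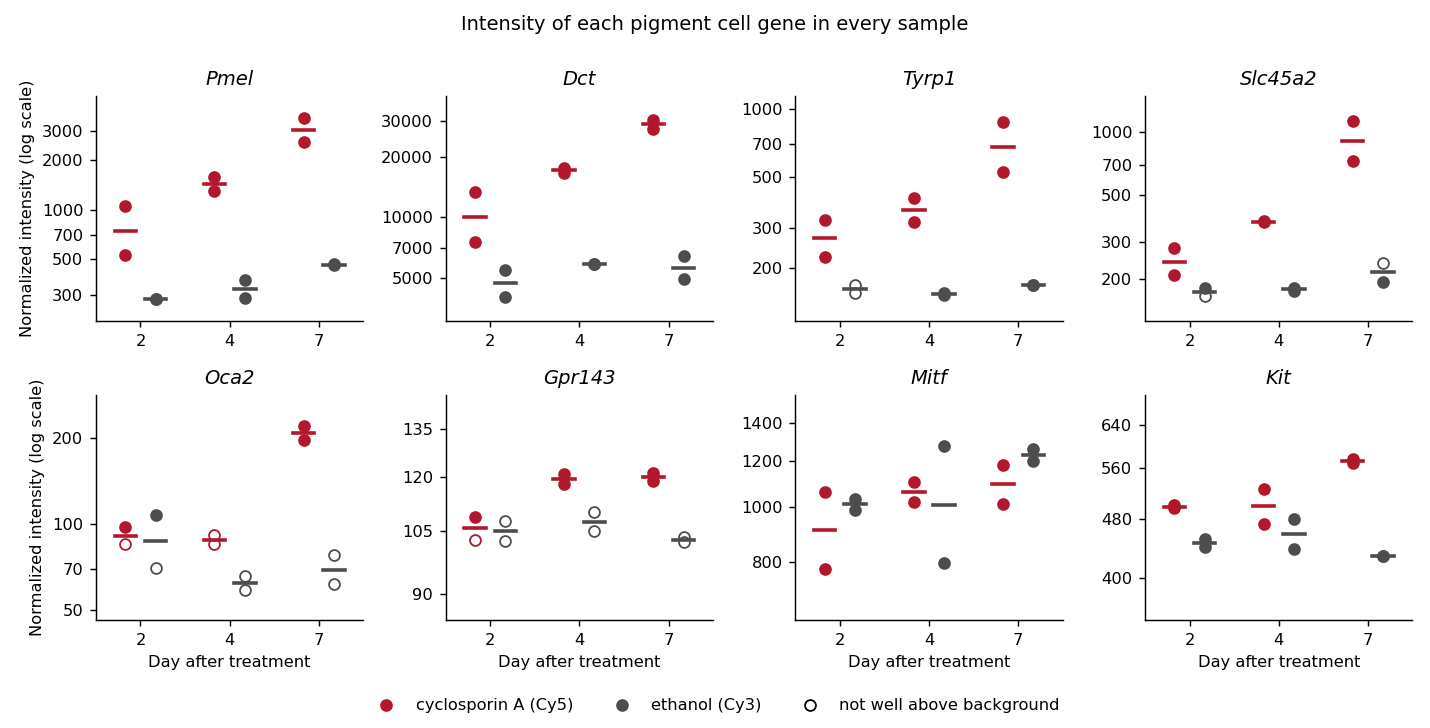
Normalized intensity (log scale) of the 8 measured genes in each of the 6 cyclosporin A (red, left) and 6 ethanol (grey, right) samples by day, with bars at the mean of the log2 values and open circles where a probe was not well above background. Pmel, Dct and Tyrp1 show no overlap between groups, with Pmel between 528 and 3643 in cyclosporin A samples and between 283 and 467 in ethanol samples.

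Slc45a2, a transporter needed for normal tyrosinase activity, had intensities of 281 and 209 in cyclosporin A samples at day 2, 376 and 373 at day 4, and 1131 and 730 at day 7, against 166 and 181, 175 and 182, and 239 and 194 in ethanol samples. The lowest cyclosporin A sample, on day 2, lay under the highest ethanol sample, on day 7, yet the ratio was above 0 on each array. Slc45a2 rose 4.21-fold at day 7 (log2 ratio 2.08, SE 0.16, adjusted p = 0.00245), with ratios of 0.48 at day 2 and 1.07 at day 4. Its ethanol signal was well above background on 4 of 6 arrays, and on 1 of 2 at day 7.

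Oca2, which supports the chloride current that raises melanosomal pH, was near background through day 4. The cyclosporin A samples had 85.2 and 97.9 at day 2, 85.6 and 91.4 at day 4, and 196 and 221 at day 7, against 70.6 and 108, 59.2 and 66.0, and 61.8 and 78.0 in the ethanol samples. At day 7 both cyclosporin A samples were well above background and neither ethanol sample was, and at day 4 no sample was. Oca2 was 3.0-fold higher at day 7 (log2 ratio 1.58, SE 0.14, adjusted p = 0.00373). It passed the filter only through the cyclosporin A samples of day 7, where it was high, and its adjusted p with no filter on dim probes was 0.00508. The ratio was 0.06 at day 2, with 0.27 and -0.14 on the 2 arrays, and 0.50 at day 4. Taken from the log ratios that the authors deposited, the value at day 7 was 2.92 and did not pass (adjusted p = 0.0853).

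Gpr143, a melanosomal receptor that limits melanosome size, had the lowest mean ratio of the 6 products tested at each day, near background, and no test compared it with the others. At day 2 Gpr143 was above Oca2 on replicate 2 (0.09 against -0.14) and with the processed signals (0.34 against -1.79). It ranged from 103 to 121 in cyclosporin A samples, with a median of 118, and from 102 to 110 in ethanol samples, with a median of 104, and the ethanol signal was not well above background on any array. Its log2 ratio was 0.01, 0.15 and 0.22 at days 2, 4 and 7 (SE 0.11, adjusted p = 0.29 at day 7). At day 7 it lay at -0.10 when arrays were centred on their median instead of by loess. With a normexp offset of 10 it was 0.35, and with the processed signals of the scanner software 0.74, and it passed in none of these. On the ethanol side its level is only bounded.

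The regulators did not pass at any day with loess, although Kit did under median centring. Mitf ranged from 778 to 1184 in cyclosporin A samples, with a median of 1040, and from 796 to 1275 in ethanol samples, with a median of 1113. For Mitf the groups overlapped over the whole series. Its log2 ratio was -0.15, 0.08 and -0.17 at days 2, 4 and 7 (SE 0.21, adjusted p = 0.673 at day 7), the cyclosporin A sample was the higher one on 2 of 6 arrays, and the value at day 7 was 0.26 under median centring. The 2 arrays of a day pointed in opposite directions at day 2 (0.11 and -0.41) and day 4 (-0.32 and 0.47). A second Mitf probe, whose ethanol signal was not well above background, gave -0.06, -0.09 and -0.04. The files do not say which Mitf isoforms the probes detect.

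Kit ranged from 472 to 576 in cyclosporin A samples, with a median of 513, and from 428 to 480 in ethanol samples, with a median of 439. The groups overlapped over the whole series, but the cyclosporin A sample was higher on 6 of 6 arrays. The log2 ratio was 0.16 and 0.12 at days 2 and 4, and 0.42 at day 7 (0.41 and 0.43 on the 2 arrays, SE 0.11, adjusted p = 0.0939). Under median centring, which moved the median of all genes to 0.39, 0.27 and 0.17 at days 2, 4 and 7, Kit stood at 0.70 at day 7 (adjusted p = 0.0147). Mast cells also carry Kit and Mitf. Of 10 mast cell markers tested 0 passed at day 7, where 2.35% of all genes were called higher and 0.642% lower. An unadjusted p under 0.05 was found for 1 marker and for 22.1% of all genes, and the median log2 ratio of the markers was 0.13. Their summed intensity was 9414 to 23382 in cyclosporin A samples and 12130 to 21010 in ethanol samples, and its part in the values of Kit and Mitf was not tested.

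**Figure D2:**
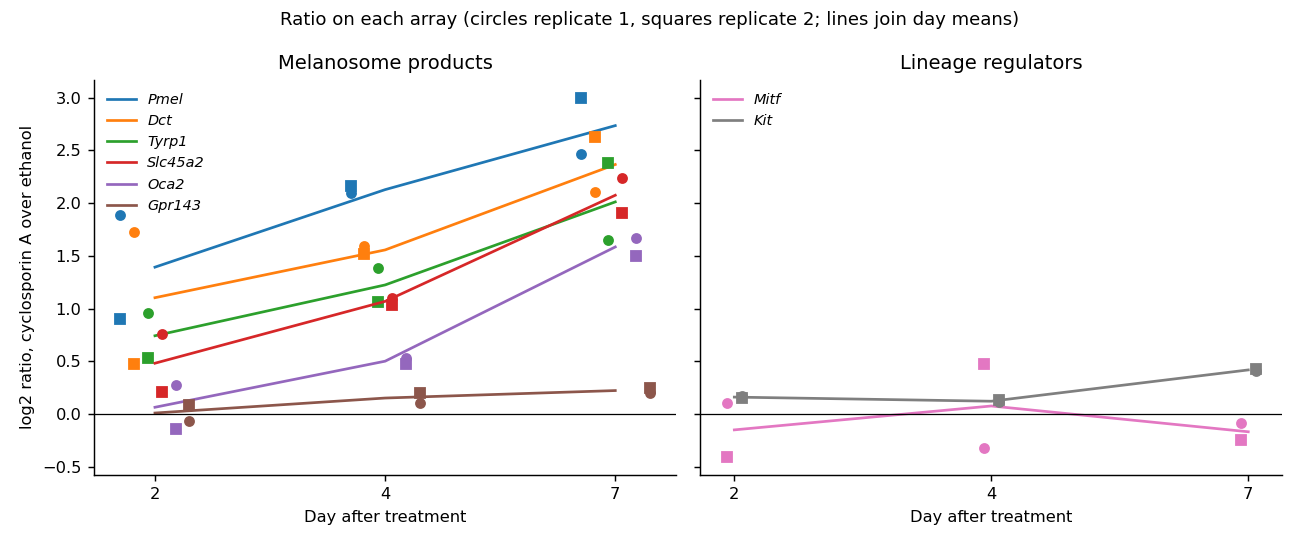
log2 ratio of cyclosporin A over ethanol on each array (circles replicate 1, squares replicate 2) against day, with lines through the day means, for the 6 melanosome products (left) and the 2 lineage regulators (right). At day 7 the products Pmel, Dct, Slc45a2, Tyrp1 and Oca2 lie between 1.50 and 3.0 on single arrays, Gpr143 at 0.20 and 0.25, Kit at 0.41 and 0.43 and Mitf at -0.09 and -0.25.

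By day, 0 of 8 members were called at day 2 and 0 at day 4, against 0% of all genes called higher at day 2 and 0.0044% at day 4. Unadjusted p was under 0.05 for 4 members at day 2 and 5 at day 4, compared with 9.68% and 15% of all genes in either direction. Under median centring 5 members were called at each of these days, Kit among them (adjusted p = 0.0164 and 0.0489 in limma), when 8027 and 5260 of all genes were called higher. At day 7, 5 of the 6 products and 0 of the 2 regulators were called higher, where 2.35% of all genes were. Oca2, among these 5, entered only through the cyclosporin A samples of day 7, so the count is given as a description. With no filter on dim probes 5 members were called as well. At day 7, 6 of 8 members had an unadjusted p under 0.05, as did 22.1% of all genes. The median log2 ratio of the products was 0.61, 1.15 and 2.04 at days 2, 4 and 7, and that of all genes was 0.04, 0.04 and 0.03. The ratio was above 0 on every array for Pmel, Dct, Tyrp1, Slc45a2 and Kit, as for 15.7% of genes.

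The calls at day 7 rested on 2 arrays. Without replicate 2 of day 7, Pmel (2.47, adjusted p = 0.0518), Dct (2.11, adjusted p = 0.113) and Tyrp1 (1.65, adjusted p = 0.0518) were no longer called, and without replicate 1, Dct (2.62, adjusted p = 0.0799) and Oca2 (1.50, adjusted p = 0.0544) were not. Slc45a2 was called without any single one of the 6 arrays. Without either array of day 2, Pmel was called at day 4 (2.13, adjusted p = 0.0474), a ratio that those arrays enter through the pooled spread alone.

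**Figure D3:**
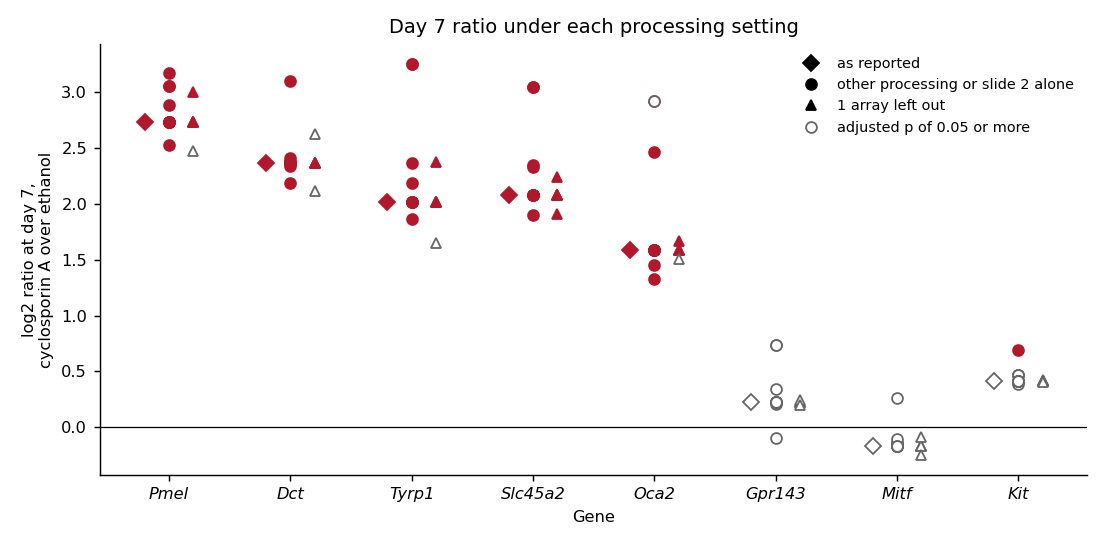
log2 ratio at day 7 for each of the 8 genes as reported (diamonds), under other processing or with the slide of day 7 alone (circles), and without 1 array (triangles). Filled symbols have an adjusted p under 0.05, and Slc45a2 is filled throughout, at 1.90 to 3.05.

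Whether the ratio itself differed between days was tested by contrasts of the day means. Between day 7 and day 2 the ratio of Oca2 differed by 1.52 (SE 0.19, adjusted p = 0.0444), the 1 member under the threshold, where 0.264% of all genes were called higher. Oca2 entered this test only through the cyclosporin A samples of day 7, and with no filter on dim probes it did not pass (adjusted p = 0.0566), so its call is given as a description. Slc45a2 differed by 1.59 (adjusted p = 0.0877), Pmel by 1.34 (adjusted p = 0.452), Tyrp1 by 1.27 (adjusted p = 0.364) and Dct by 1.26 (adjusted p = 0.632), and these 5 had an unadjusted p under 0.05, as did 6.13% of all genes. Kit differed by 0.26, Gpr143 by 0.21 and Mitf by -0.02. No member passed between days 7 and 4 (0 of 8, where 0.202% of genes were called higher, and 3 with an unadjusted p under 0.05, where 4.47% of genes had one) or between days 4 and 2 (0 of 8, where 0% of genes were called, and 1 with an unadjusted p under 0.05, where 2.24% had one). The call of Oca2 was also lost on leaving out any 1 of the 6 arrays (1.31 to 1.73, adjusted p from 0.0745 to 0.219). Days 2 and 4 were hybridised on 1 slide and day 7 on another, so slide and day 7 cannot be told apart in these contrasts.

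The channels were also compared between days on their own, over an interval in which the slide changed too. In cyclosporin A samples alone Pmel was 4.13-fold higher at day 7 than at day 2 (log2 2.05, SE 0.33, adjusted p = 0.0361), Slc45a2 3.75-fold (1.91, adjusted p = 0.0187), Dct 2.88-fold (1.53, adjusted p = 0.0472) and Oca2 2.28-fold (1.19, adjusted p = 0.0239). These 4 of 8 members were called, where 0.897% of all genes were called higher, Oca2 having entered through these samples of day 7. Tyrp1 had 1.33 (adjusted p = 0.1), Mitf 0.27 and Kit 0.20. In ethanol samples alone 0 of 8 were called over the same interval by limma, where 0.0308% of genes were called higher, and 1 member, Pmel, had an unadjusted p under 0.05 (0.70, adjusted p = 0.256). Whether the 2 channels differed in this change is the contrast of ratios above. Without replicate 2 of day 2 the log2 differences of the 4 genes called in cyclosporin A samples were 1.11 to 1.69.

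Over the 6 arrays the ratios of Pmel and Dct had a Pearson r of 0.97, and those of Slc45a2 and Oca2 0.99. Mitf had r between -0.19 and 0.20 with each of the other 7 members, and Kit had 0.69 to 0.90 with Pmel, Dct, Tyrp1, Slc45a2 and Oca2. These are descriptions over points that share days, slides and dyes. Among 305 candidate genes with a log2 ratio of at least 1 in size at day 7, the 8 most like the mean of the products were Mycn (r = 0.98), Pclaf, Zfp428, Tyms, Ncapd2, Slc24a5, Incenp and Dut, all with r of 0.97 or more. Mycn, a growth-promoting transcription factor, had 0.90, 1.88 and 2.96 at days 2, 4 and 7.

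Other genes of melanin synthesis and of the melanosome membrane changed in 2 of 9 tested at day 7, both higher, as were 2.35% of all genes, and their median log2 ratio was 0.04. Slc24a5, a cation exchanger of the melanosome, had a level 3.30-fold higher (log2 ratio 1.72 with SE 0.14, adjusted p = 0.00257), with 1.53 and 1.91 on the 2 arrays, and stood at 0.66 and 1.16 at days 2 and 4. Mc1r, the melanocortin receptor that directs black pigment synthesis, was 1.97-fold higher (0.98 and 0.97 on the 2 arrays, adjusted p = 0.0159). The ethanol signal of both genes was not well above background at day 7. The call of Slc24a5 was kept without any single array, whereas that of Mc1r was lost without replicate 1 or 2 of day 7 (adjusted p = 0.117 and 0.106) or either array of day 4 (adjusted p = 0.052). With the deposited log ratios and with the processed signals of the scanner software Mc1r had a larger ratio that did not pass (1.85, adjusted p = 0.0741 and 0.0826). The 2 genes of lowest p that did not pass were Ostm1 (-0.33, adjusted p = 0.16) and Atp7a (-0.34, adjusted p = 0.349), both above 0 under median centring.

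Tyr, the rate-limiting enzyme, has no measured level in these data. Its only probe was not well above background in either channel of any array, with 82.9 to 92.9 in cyclosporin A samples and 83.7 to 90.3 in ethanol samples, and it did not enter the tests. A probe at background does not show that the transcript is absent.

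The machinery that builds and moves melanosomes, much of which other cell types also use, showed no call with loess and a normexp offset of 50. Of 18 genes of melanosome biogenesis and cargo sorting 0 passed at day 7 (1 at an unadjusted p under 0.05), with a median of 0.00. Of 8 genes of melanosome transport and transfer 0 passed (1 at an unadjusted p under 0.05), with a median of -0.19. Among all genes 2.35% were called higher and 0.642% lower, and 22.1% had an unadjusted p under 0.05, so counts of 0 in lists of this size say little. The lowest p values belonged to Ap3b1, a subunit of the adaptor that sorts tyrosinase (-0.48, adjusted p = 0.145, 0.14 under median centring), Bloc1s5 (0.25, adjusted p = 0.268), Sytl2 (0.72, adjusted p = 0.0702, and 0.0482 under median centring) and Myo5a, the motor of melanosome transport (-0.35, adjusted p = 0.272, 0.13 under median centring).

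Of 15 signals and receptors of the lineage 0 rose and 1 fell at day 7, when 0.642% of all genes were called lower. An unadjusted p under 0.05 was found for 6 of the 15, in either direction, and for 22.1% of all genes. Tyro3, a receptor tyrosine kinase of the TAM family, fell by 1.02 on the log2 scale (SE 0.15, adjusted p = 0.024), with -0.96 and -1.08 on the 2 arrays, and had -0.69 and -0.70 at days 2 and 4. The mean over its probes was -0.53 (adjusted p = 0.101), and the call was also lost without either array of day 7 (adjusted p = 0.141 and 0.157) or of day 4 (adjusted p = 0.0685). It was lost as well with deposited log ratios (-1.06, adjusted p = 0.0715), processed signals (-1.06, adjusted p = 0.0803) and scale normalization between arrays (-0.94, adjusted p = 0.0589), so that 9 of 17 alternatives did not call Tyro3. Agouti (symbol a), which switches melanocytes to yellow pigment, had a ratio of 0.55 (adjusted p = 0.0583) against an ethanol signal not well above background, and passed with a smaller normexp offset (1.07, adjusted p = 0.0149). Edn1, a mitogen for melanocytes, had 0.66 (adjusted p = 0.0692), and passed with deposited log ratios (1.32, adjusted p = 0.0397), processed signals (1.32, adjusted p = 0.0478) and median centring (0.80, adjusted p = 0.024). Among 15 transcription factors tested beside Mitf 1 passed, higher as were 2.35% of all genes. It was Lef1, a mediator of Wnt signalling that is also made by hair matrix cells (1.57, 1.10 and 2.03 on the 2 arrays, adjusted p = 0.0215). The call of Lef1 was lost without replicate 2 of day 7 (1.10, adjusted p = 0.105) or either array of day 4 (adjusted p = 0.0619). Tfap2a (0.54, adjusted p = 0.149) and Ctnnb1 (0.25, adjusted p = 0.275) did not pass with loess. Under median centring, which called 4387 of all genes higher at day 7, both passed (0.84, adjusted p = 0.0214, and 0.88, adjusted p = 0.0149).

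**Figure D4:**
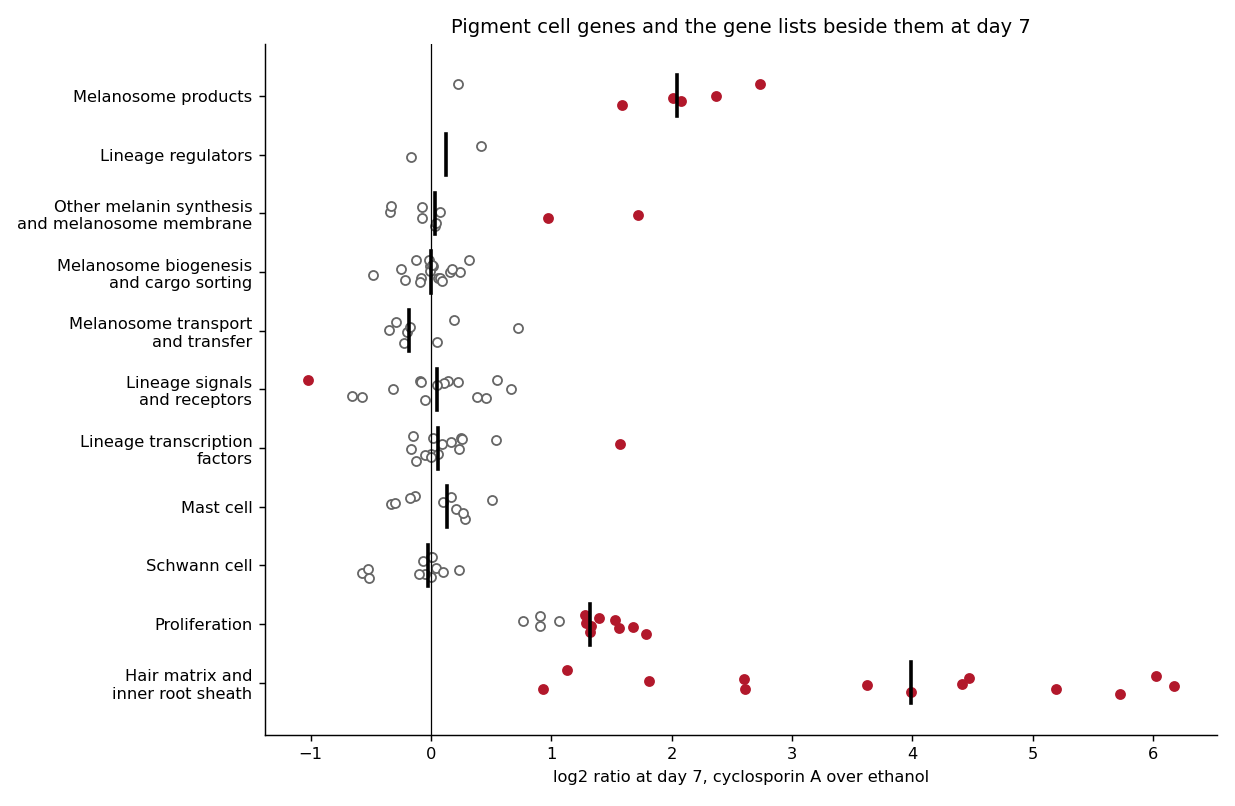
log2 ratio of cyclosporin A over ethanol at day 7 for each tested gene (filled, adjusted p under 0.05) of the pigment cell lists and of marker lists, with a bar at each list's median. The melanosome products have a median of 2.04 and the hair matrix and inner root sheath list 3.99, while the biogenesis, transport, mast cell and Schwann cell lists have medians between -0.19 and 0.13.

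Markers of other cells of the follicle moved over the same days. All 13 hair matrix and inner root sheath genes tested were called higher at day 7, where 2.35% of all genes were, with a median log2 ratio of 3.99, against 0.19 at day 2 and 0.70 at day 4. Their summed intensity was 1754 to 248425 in cyclosporin A samples and 1556 to 6661 in ethanol samples. Krt33a, Krt34, Krt31, Hoxc13 and Shh were not well above background in any ethanol sample, so they entered the tests through cyclosporin A samples alone. Krt86 was so in 1 of 6 ethanol samples, too few to pass the filter without cyclosporin A samples. The count of 13 is therefore given as a description. Of 13 proliferation genes 9 were called higher at day 7, with a median of 1.33, and of 12 Schwann cell markers, which share the neural crest origin of melanocytes, 0 passed (3 at an unadjusted p under 0.05, as 22.1% of all genes had), with a median of -0.03. The part of these cells in the values of the pigment genes was not tested.

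The product median was above that of the hair matrix list on each of the 4 arrays of days 2 and 4, and under it on both arrays of day 7, and no test compared the lists. Both lists hold genes near background, such as Oca2 and Krt31, and the offset draws low values together. The order of the medians therefore does not show which list rose first. At day 2 the product median was 0.86 on replicate 1 and 0.34 on replicate 2, where the proliferation list had 0.47 and -0.03 and 11 macrophage markers 0.71 and -0.45. The part of these differences between the 2 arrays in the pigment gene values was not tested.

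**Figure D5:**
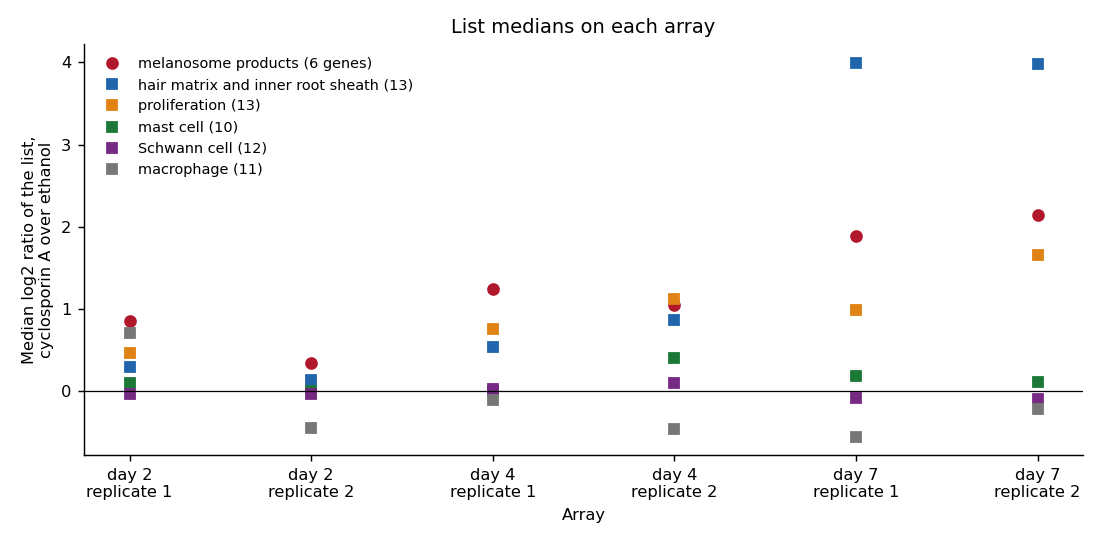
Median log2 ratio of cyclosporin A over ethanol on each of the 6 arrays for the melanosome products (circles) and for 5 marker lists (squares). The hair matrix and inner root sheath list stands at 4.00 and 3.99 on the arrays of day 7, above the products, and below them on the arrays of days 2 and 4. Both of these lists hold genes near background, which limits the comparison.

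As checks on the libraries, the skin genes Krt5, Krt14, Krt1, Krt10, Col1a1 and Col3a1 gave a signal well above background on 6 of 6 arrays in either channel. The median signal before normalization was 134.5 to 187 in the cyclosporin A channel and 203 to 277 in the ethanol channel, and 59.9% to 68.8% and 43.5% to 56.5% of probes were well above background in these channels. With 2 arrays a day, their number limits the precision of every value, and without a dye exchange the treatment and the response of a probe to the dye cannot be told apart within a day.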

How the data were processed

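The deposited scanner files give each spot's median intensity and local background in both channels. They come from Agilent Feature Extraction, for which the submitters' processing notes name version 9.1. The processed intensity and its log10 ratio of Cy5 over Cy3 come from the same software per the file headers, and the deposited log10 value table was checked to equal that ratio (largest difference 0). Those values served as alternatives, on the log2 scale.

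From the authors' median intensities, 1639 control spots of 45018 and outlier spots were left out, and normexp (offset 50) and loess within arrays were applied. The offset draws low values together. Intensities by sample are those of each channel after the mean of both was given 1 distribution across arrays. Probes were kept where 1 channel was well above background on both arrays of some day, and the probe of highest mean signal stood for a gene. RefSeq (GRCm38.p6) gave names alone, for 22951 probes by accession. The array's build is not given in the sources used here.

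limma 3.58.1 was used under R 4.3.3, and files were read with data.table, version 1.17.8. One mean per day was fitted over 6 arrays in limma, with 3 residual and 3.763 prior degrees of freedom, and tested on simulated data. Folds against an ethanol signal not well above background are those of the log2 ratio, not lower limits, and are open to dye bias. Titles number the replicates 1 and 2, although each description reads replicate 1 of 2. Members, lists, and the rule for further names (those passing, and the 2 of lowest p that did not) were chosen with earlier results of these data known. Same-numbered arrays did not deviate together (correlations 0.0077, -0.278 and -0.0232), so the numbers were not taken as pairs. Alternatives changed the background correction, centring, scaling, filter, probe choice, replicate block, single arrays and, added after seeing the data, the slide.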

Additional observations from a re-analysis of the deposited data

Results flagged for a closer look

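The log2 ratio of Oca2 differed between day 7 and day 2 by 1.52 (SE 0.19, adjusted p = 0.0444 in limma over all genes), a difference between time points that was tested directly. The ratio was 1.67 and 1.50 on the 2 arrays of day 7 and 0.27 and -0.14 on those of day 2. The ethanol signal was not well above background on either array of day 7 and on 1 of 2 at day 2, the cyclosporin A signal was not on replicate 1 of day 2, and the slide differed between these days. Oca2 passed the filter on dim probes only through the cyclosporin A samples of day 7, where it was high, and with no filter the adjusted p was 0.0566, so the call does not stand as a test of the difference.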

How the results depend on the processing

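At day 7 the count of 5 members called was 2 when only probes above background in each channel of every array were kept, which left 4 members in the test, and 2 to 5 with 1 array left out. At days 2 and 4 the count of 0 was 5 and 5 under median centring, and at day 4 it was 0 to 1 with 1 array left out. The 1 call between days 7 and 2 (Oca2) was 0 with processed signals, median centring, scale normalization between arrays, deposited log ratios, probes above background on all arrays, no filter, or the replicate number as a block, and 0 to 0 with 1 array left out. The 4 calls in the cyclosporin A channel became 2 under median centring, 2 with probes above background on all arrays, 2 with no filter and 1 with the block, and 0 to 3 with 1 array left out. With the replicate block 5 members were still called at day 7, and Tyro3 (adjusted p = 0.0525) was lost. Median centring called 6 members at day 7, with Kit added, and the deposited log ratios called 4, with Oca2 lost. The cause of these changes was not tested.

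No value with a call changed sign. Values without a call that did were, under median centring, Oca2 (-0.35), Gpr143 (-0.39) and Mitf (0.45) at day 2, Gpr143 (-0.15) at day 4, Gpr143 (-0.10), Mitf (0.26), Ostm1 (0.23), Atp7a (0.15), Ap3b1 (0.14) and Myo5a (0.13) at day 7, and Kit in ethanol samples between days 7 and 2 (0.0302). Oca2 at day 2 was -1.79 with processed signals and -1.22 with deposited ratios, and Mitf between days 7 and 2 was 0.0163 with either and 0.0029 with the mean over probes, which gave Mitf -0.0085 at day 4. With 1 array left out, Oca2 ranged from -0.14 to 0.27, Gpr143 from -0.0668 to 0.0861 and Mitf from -0.41 to 0.11 at day 2, Mitf from -0.32 to 0.47 at day 4, and Atp7a from -0.71 to 0.037 at day 7. Between days 7 and 2 Mitf ranged from -0.27 to 0.24 and Gpr143 in ethanol samples from -0.0676 to 0.0053. The slide of day 7 alone called 5 members, and that of days 2 and 4 alone called 0. Signal over background limits Oca2, Gpr143, Tyr and the ethanol level of Tyrp1 and Slc45a2.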
